A study of Homo sapiens with 6 samples.

Results

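The 50 genes described here encode proteins that decide which exons of a transcript are kept, and they were chosen by name as rows of the deposited count table, out of 29806 NCBI Gene numbers. They comprise 13 serine/arginine-rich (SR) and SR-like proteins, 18 heterogeneous nuclear ribonucleoproteins (hnRNPs), 9 other broadly expressed regulators, and 10 regulators known for restricted expression in neurons, muscle, epithelium or blood. The first 3 families, 40 genes in all, are called broad below and the last 10 tissue-restricted. A differentially expressed gene (DEG) had to differ by at least 1.5-fold between PACT KO and LNCaP parental cells. NOVA1, a splicing factor of neurons, was the only tested member to do so. It rose from 4.00 ± 0.575 to 27.1 ± 1.58 CPM (reads of a gene scaled to a common library total, mean ± SD, n = 3), a log2 fold change of 2.76 ± 0.10 (SE). Most broad regulators moved far less and downwards, HNRNPA2B1 furthest, from 804.4 ± 10.5 to 621.5 ± 24.4 CPM.

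LNCaP is an androgen-responsive line of human prostate cancer, and PACT is the protein product of PRKRA, known as an activator of the kinase PKR and a partner of Dicer. The wild type parental line and the PACT KO line were each sampled in 3 dishes. These were grown in RPMI-1640 with 10% fetal bovine serum, without added hormone or inhibitor, and lysed 48 h after plating, near 80% confluency. The KO line had been made with a CRISPR-Cas9 plasmid against PRKRA and grown from a single colony of sorted cells, while no editing, sorting or cloning is described for the parental line. The loss of PACT and the choice of that clone therefore cannot be told apart, and p-values measure the spread between dishes only. Between 19930060 and 24940838 reads per library were counted on genes, so 3 counts correspond to 0.120 to 0.151 CPM.

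The targeted gene was checked in every library. PRKRA had 882, 809 and 866 counts in parental replicates 1, 2 and 3 and 291, 331 and 243 in PACT KO replicates 1, 2 and 3, so every library labelled as knockout lay below every parental one. All 10 luminal prostate markers listed were detected in both groups, although KLK3 (log2 fold change -2.50 ± 0.06) and KLK2 (-0.84 ± 0.07) fell. The basal markers KRT5 and KRT15, the fibroblast marker COL1A2, and the blood marker CD3E had 0 counts in every library. The summed level of 5 basal markers was 9.47 to 10.0 CPM in parental and 13.0 to 13.3 CPM in PACT KO libraries, nearly all of it ITGB4. The summed level of 6 fibroblast markers was 33.3 to 38.3 and 45.4 to 50.9 CPM, mostly COL1A1, and that of 4 blood markers was 2.03 to 2.26 and 1.46 to 1.68 CPM. These sums moved with the groups, and their part in the results below was not tested. In bulk RNA, fewer cells with a transcript and less of it per cell cannot be told apart.

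Splicing joins exons at sites recognised by small nuclear ribonucleoproteins (snRNPs), and regulators tune which sites are used. SR proteins bind enhancers within exons and usually favour inclusion. hnRNPs coat nascent transcripts and often, though not always, repress the sites they cover. Broad members are abundant in nearly all cells, while tissue-restricted ones such as NOVA1 in neurons or ESRP1 in epithelium impose the exon choices of a cell type. Many of these genes limit their own output through exons whose inclusion leads to decay of the transcript. The deposited values sum all transcripts of a gene and do not separate such forms.

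The sequences before the start sites of 3 members are shown, namely NOVA1 (the DEG), HNRNPA2B1 (the largest fall among broad members) and TIA1 (the largest rise among broad members). Each is the 250 bases before the outermost start annotated by RefSeq on GRCh38.p14, written 5′ to 3′ on the strand of the gene, with CpG dinucleotides in capitals. All 3 genes lie on the minus strand. NOVA1 spans chr14:26443090-26598033 and its window is chr14:26598034-26598283, HNRNPA2B1 spans chr7:26189927-26200746 with its window at chr7:26200747-26200996, and TIA1 spans chr2:70209444-70248793 with its window at chr2:70248794-70249043.
NOVA1: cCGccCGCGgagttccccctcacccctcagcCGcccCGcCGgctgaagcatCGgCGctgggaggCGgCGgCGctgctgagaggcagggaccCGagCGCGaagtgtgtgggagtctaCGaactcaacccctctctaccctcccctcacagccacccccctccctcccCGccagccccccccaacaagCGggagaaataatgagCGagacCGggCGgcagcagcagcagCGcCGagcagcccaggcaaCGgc
HNRNPA2B1: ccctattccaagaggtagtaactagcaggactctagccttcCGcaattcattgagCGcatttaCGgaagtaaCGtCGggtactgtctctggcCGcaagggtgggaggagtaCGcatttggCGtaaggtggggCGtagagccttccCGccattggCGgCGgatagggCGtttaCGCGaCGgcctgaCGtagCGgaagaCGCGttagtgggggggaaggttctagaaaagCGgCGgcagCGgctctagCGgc
TIA1: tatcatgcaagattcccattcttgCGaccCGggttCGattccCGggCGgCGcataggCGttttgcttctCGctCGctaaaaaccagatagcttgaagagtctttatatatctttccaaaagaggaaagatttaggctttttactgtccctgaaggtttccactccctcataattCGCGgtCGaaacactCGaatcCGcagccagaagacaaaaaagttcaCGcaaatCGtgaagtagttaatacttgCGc
The NOVA1 window had the most G and C, 71.6% with 23 CpG, against 59.2% with 24 CpG for HNRNPA2B1 and 45.6% with 17 CpG for TIA1.

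Windows of 300 bases, from 250 before to 50 after the outermost start, were held for 38 of the 50 members and were searched on both strands for 5 short motifs. The GC box (GGGCGG) occurred in 24 of 38 members (63.2%) and in 43.9% of 24882 such windows over all genes. The E-box (CACGTG) occurred in 8 members (21.1%, against 7.40% of all), and the CCAAT box (CCAAT) in 15 members (39.5%, against 36.1%). The TATA box (TATAAA) occurred in 4 members (10.5%, against 12.2%), and a core of the androgen response element (AGAACA) in 5 (13.2%, against 15.0%). Within the 3 printed sequences, NOVA1 held a GC box, HNRNPA2B1 a CCAAT box, and TIA1 a TATA box and a GC box. Members had a median of 29.5 CpG per window against 13 over all genes, with the lowest count, 3, at SRSF8. A match in letters is a description only, and these libraries hold no measure of binding or of which start was used.

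Across the members, 46 of 50 had enough reads to be tested, and 41 of those averaged at least 30 CPM. By edgeR's quasi-likelihood test at a false discovery rate (FDR) under 0.01, 25 members were lower in PACT KO cells, against 18.8% of all 14462 genes tested, and 5 were higher, against 15.3% of all. Among the 6940 genes of at least 30 CPM, the background was 29.2% lower and 17.9% higher, a comparison added after seeing that the members were abundant. Many members lay far above 30 CPM, and no background matched more closely to their level was computed. As DEGs, 0 members were lower, against 2.65% of all genes (0.965% of those of at least 30 CPM), and 1 was higher, against 3.07% (0.591%). The lowest log2 fold change of any tested member was -0.37, short of 1.5-fold, so a looser p could not add a lower DEG. The count was therefore 0 at an unadjusted p under 0.05 too, and DESeq2 also gave 0. The 3 dishes of each group did not overlap for 29 members that were lower (27.2% of all genes) and for 7 that were higher (25.1% of all genes). Between dishes the members varied little, with a median coefficient of variation of 1.92% in parental and 2.92% in PACT KO cells, highest for NOVA1 (14.4%) and KHDRBS3 (10.2%). The median log2 fold change was -0.11 over the 46 members and 0.000438 over all genes. Scaling moves these counts, since library totals alone gave 20 lower and 6 higher members on a table where 2286 genes were lower and 2731 higher, against 2726 and 2214 with TMM.

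The broad members lay mostly below parental cells and the tissue-restricted ones on both sides. Of 39 broad members tested, 38 of at least 30 CPM, 23 fell and 3 rose, beside 29.2% lower and 17.9% higher among genes of that level, with a median log2 fold change of -0.13 and a range from -0.37 to 0.23. Of 7 tissue-restricted members tested, 2 fell and 2 rose, with a median of 0.15 and a range from -0.20 to 2.76. With 7 genes these counts are near the background of 18.8% lower and 15.3% higher and show nothing about the class. As the median deviation from the parental mean in each PACT KO library, broad members stood at -0.13, -0.14 and -0.16, outside the parental range of -0.0042 to 0.0038. Tissue-restricted members stood at 0.049, 0.018 and 0.21, and the second of these lay inside the parental range of -0.045 to 0.022. The summed level of the broad members was 11007 ± 49.9 CPM in parental and 9871 ± 118.1 CPM in PACT KO cells, 0.897 times the parental level. The summed level of the tissue-restricted members was 385.5 ± 0.823 and 389.4 ± 2.84 CPM, and without NOVA1 it was 381.5 ± 1.01 and 362.3 ± 3.58 CPM. With 3 dishes against 3, an exact permutation test of such a sum cannot give a p below 0.10. The class division matters, because with SR proteins and hnRNPs alone on the broad side the other 19 members had a median of -0.045.

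**Figure D1:**
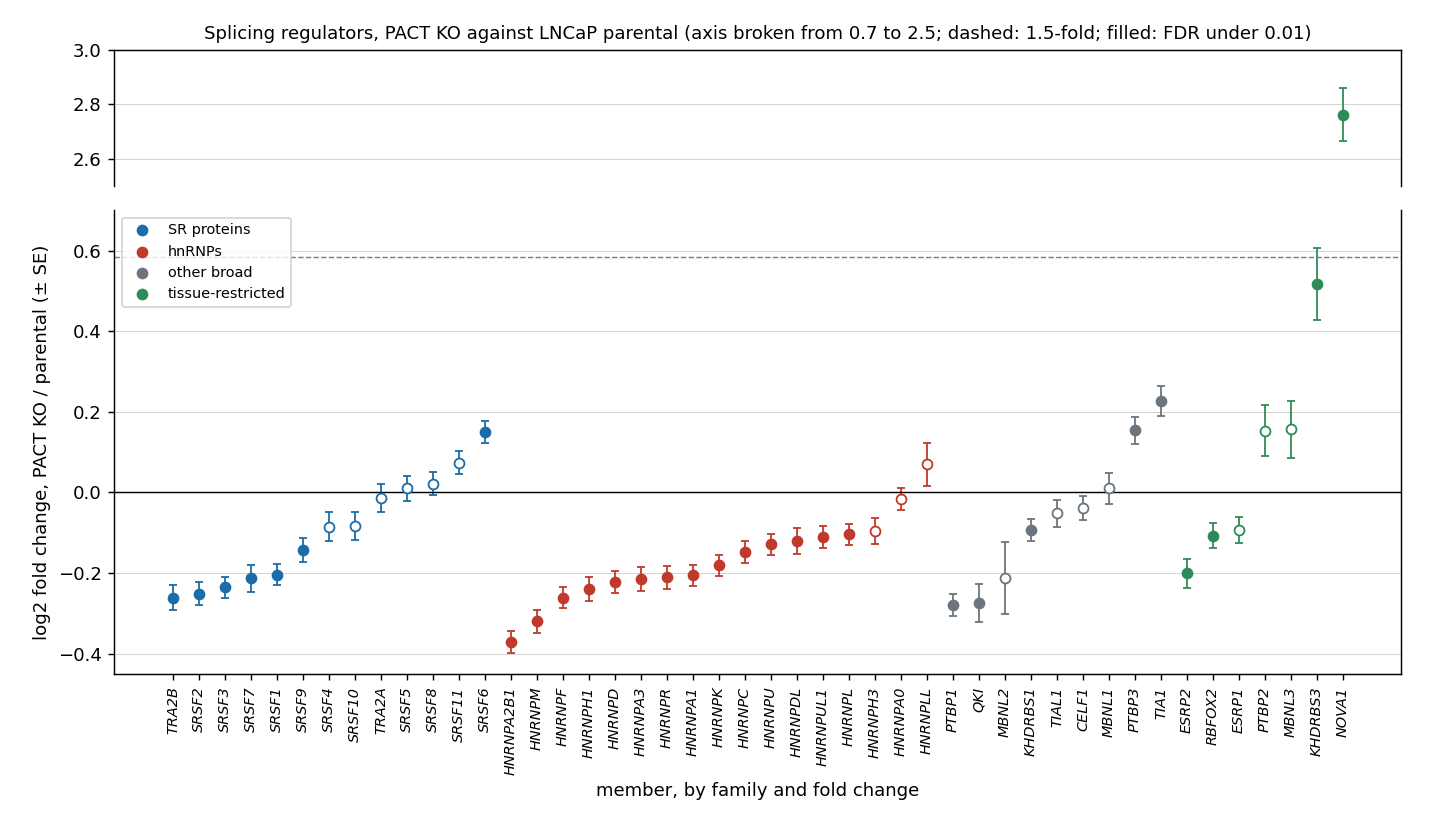
Log2 fold change of PACT KO over LNCaP parental cells (vertical axis, broken from 0.7 to 2.5) with its SE for the 46 members tested, ordered by family and value, with filled points at an FDR under 0.01 and a dashed line at 1.5-fold. NOVA1 at 2.76 stands alone above the line, KHDRBS3 at 0.52 comes next, and 14 filled hnRNP points lie below 0.

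Of the 4 families, the hnRNPs had the most members that fell. Of 17 tested, 14 fell and 0 rose, 16 had a fold change below 0, and the median was -0.18. All 17 averaged at least 30 CPM, where 29.2% of genes fell and 17.9% rose. The lowest in parental cells were HNRNPLL (31.6 CPM) and HNRNPH3 (123.8 CPM), so most lay far above 30 CPM. A background matched to their level was not computed, and the excess over 29.2% may in part reflect their level. At an unadjusted p under 0.05 the family had 15 lower and 0 higher, and by DESeq2 14 lower and 0 higher. Their summed level went from 7202 ± 63.6 to 6290 ± 82.4 CPM, 0.873 times the parental level, the lowest ratio of the 4 families. With library totals alone 11 fell, and with a dish left out 12 to 14 fell.

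HNRNPA2B1, which packages nascent RNA and represses weak exons, had 809.6, 792.3 and 811.3 CPM in parental dishes and 649.3, 603.5 and 611.7 CPM in PACT KO dishes. The dishes of the groups did not overlap, and the level fell by 22.7%, a log2 fold change of -0.37 ± 0.03 (FDR = 3.2e-14, edgeR). HNRNPM, a repressor and activator of exons in epithelial and mesenchymal programmes, had 297.8, 299.0 and 297.0 CPM against 250.6, 229.0 and 236.5 CPM. Its log2 fold change was -0.32 ± 0.03 (FDR = 1.1e-11), and its parental SD was 1.05 CPM. HNRNPF, which binds runs of G near splice sites, had 474.4, 471.2 and 460.2 CPM against 395.3, 390.1 and 387.1 CPM. It fell by 0.26 ± 0.03 on the log2 scale (FDR = 8.5e-11), with every PACT KO dish below every parental dish.

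The other 11 hnRNPs that fell did so by less. They were HNRNPH1 (-0.24), HNRNPD (-0.22), HNRNPA3 (-0.21), HNRNPR (-0.21), HNRNPA1 (-0.21), HNRNPK (-0.18), HNRNPC (-0.15), HNRNPU (-0.13), HNRNPDL (-0.12), HNRNPUL1 (-0.11) and HNRNPL (-0.10), as log2 fold changes. HNRNPA1, the best studied repressor of exon inclusion, fell from 1084 ± 12.4 to 940.2 ± 8.20 CPM, and HNRNPC, which keeps cryptic exons in repeats silent, from 556.1 ± 18.5 to 501.9 ± 7.72 CPM. The 3 smallest falls, HNRNPDL, HNRNPUL1 and HNRNPL, lost the call with library totals alone, and each also when a dish was left out. HNRNPDL did so without parental replicate 1 (-0.11) or PACT KO replicate 2 (-0.088), HNRNPUL1 without PACT KO replicate 1 (-0.089), and HNRNPL without parental replicate 1 (-0.090), parental replicate 2 (-0.10) or PACT KO replicate 3 (-0.086). Per kilobase of exon, HNRNPA1 (212.9 CPM per kb), HNRNPK (190.1) and HNRNPF (144.0) had the highest levels of the 50 members in parental cells. HNRNPA1 and HNRNPA3 have processed copies elsewhere in the genome, and how the counting treated reads that fit both is not given in the sources used here.

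The remaining 3 hnRNPs tested did not pass. HNRNPH3 gave -0.095 ± 0.033 (FDR = 0.017), HNRNPA0 gave -0.016 ± 0.027 (FDR = 0.66), and HNRNPLL, an exon repressor of lymphocytes, gave 0.070 ± 0.053 (FDR = 0.29). HNRNPH3 passed without parental replicate 2 (-0.12) or without PACT KO replicate 2 (-0.12). HNRNPA0 stayed within 291.8 to 302.2 CPM in all 6 libraries. It was taken as a reference within the family after its values were seen, so the ratio that follows is a description only. The counts of HNRNPA2B1 were 2.68, 2.71 and 2.70 times those of HNRNPA0 in the parental libraries and 2.19, 2.07 and 2.07 times in the PACT KO libraries, a ratio that does not depend on the scaling of libraries. HNRNPH2 had only 5, 7 and 7 counts against 7, 9 and 12 and was not tested. The read-through gene RPL36A-HNRNPH2, which covers it on the same strand, had 0 counts throughout. How reads that fit both genes were counted is not given in the sources used here. The low count of HNRNPH2 is therefore not informative about its expression.

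**Figure D2:**
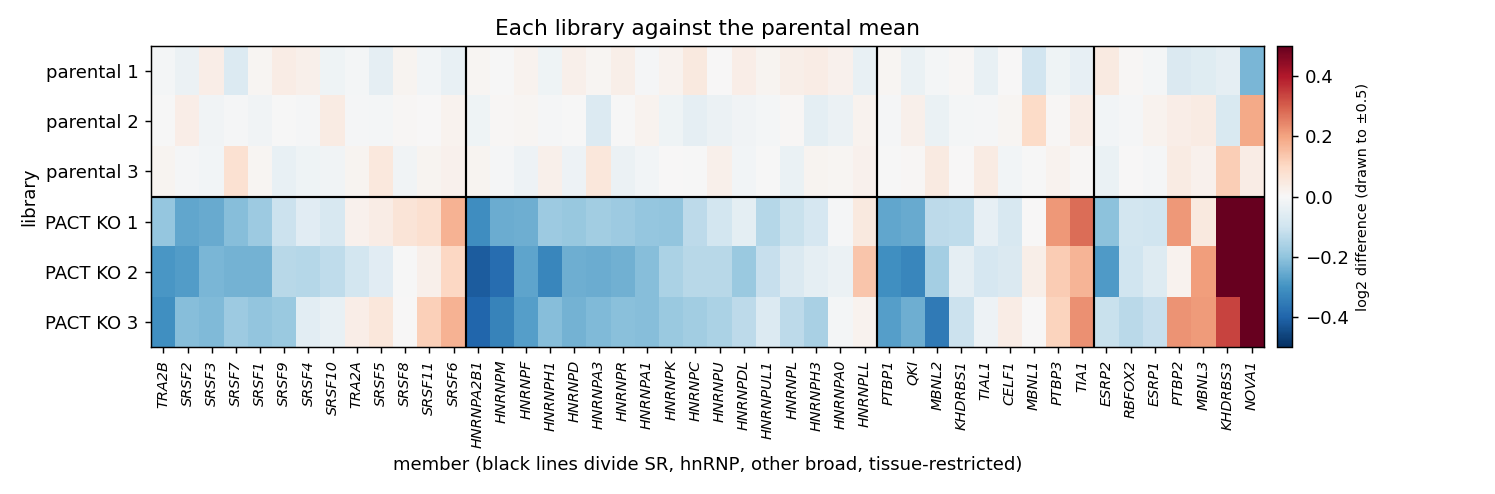
Difference of each library (rows) from the mean of the parental libraries on the log2 scale (colour, drawn to ±0.5) for the 46 members tested (columns, by family). The PACT KO rows are blue, that is lower, across the 14 hnRNPs that fell, in all 3 dishes, and red at NOVA1 and KHDRBS3, while the parental rows are pale except at NOVA1.

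The SR family was split. Of 13 tested, 6 fell, 1 rose and 6 did not pass, beside 29.2% lower and 17.9% higher among genes of at least 30 CPM, as all 13 are, with a median log2 fold change of -0.085 and a summed level 0.939 times that of parental cells. TRA2B, an SR-like activator that binds GAA-rich enhancers, had 155.2, 155.9 and 157.7 CPM in parental dishes and 136.8, 127.8 and 126.2 CPM in PACT KO dishes. It fell by 0.26 ± 0.03 (FDR = 7.8e-09). SRSF2, a core SR protein of nuclear speckles, had 225.1, 235.1 and 228.9 CPM against 192.0, 189.2 and 198.2 CPM, a log2 fold change of -0.25 ± 0.03 (FDR = 2.4e-09). For both genes the groups did not overlap between dishes, though SRSF2 shares its locus with MFSD11 and the use of strand in counting is not given in the sources used here. SRSF3, the smallest SR protein, which also takes part in mRNA export, had 310.0, 299.4 and 300.0 CPM against 254.2, 258.5 and 259.9 CPM. Its log2 fold change was -0.24 ± 0.03 (FDR = 2.7e-09), and its PACT KO dishes lay closer together than its parental ones.

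SRSF7 (-0.21), SRSF1 (-0.20) and SRSF9 (-0.14) also fell. SRSF6, a regulator of exon inclusion with roles in epithelial wound healing, was the only SR member that rose, from 329.0 ± 7.52 to 365.3 ± 10.4 CPM, by 0.15 ± 0.03 on the log2 scale (FDR = 2.1e-05). Set against SRSF1, the founding SR protein, its counts were 0.866, 0.915 and 0.902 times as many in parental libraries and 1.14, 1.13 and 1.16 times as many in PACT KO libraries. Per kilobase of exon, the levels of SRSF1 and SRSF6 were 110.1 and 71.6 CPM per kb in the parental line, and 95.6 and 79.5 CPM per kb after knockout. The members without a call were SRSF4 (-0.085), SRSF10 (-0.083), TRA2A (-0.013), SRSF5 (0.010), SRSF8 (0.022) and SRSF11 (0.074). SRSF11 passed as higher with library totals alone (0.10), with upper quartile scaling (0.098) or without PACT KO replicate 2 (0.099). TRA2A, the close relative of TRA2B, had 96.7, 97.0 and 98.2 CPM against 98.7, 91.4 and 99.6 CPM, with overlap, and the sign of its difference depended on scaling.

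Among the 9 other broad regulators, 3 fell, 2 rose and 4 did not pass, which is near the 29.2% lower and 17.9% higher among genes of at least 30 CPM, as 8 of the 9 are. PTBP1, which represses neuronal exons outside the brain, had 308.8, 305.3 and 306.4 CPM in parental dishes and 256.4, 248.2 and 253.8 CPM in PACT KO dishes. It fell by 0.28 ± 0.03 on the log2 scale (FDR = 3.3e-11), and the SD was at most 4.18 CPM in either group. QKI, a regulator of exons and circular RNAs, had 39.0, 40.7 and 40.1 CPM against 33.5, 31.8 and 33.7 CPM, a log2 fold change of -0.27 ± 0.05 (FDR = 9.6e-06). TIA1, which helps the U1 snRNP at weak 5′ splice sites, rose from 67.1, 70.9 and 69.3 to 83.9, 77.7 and 81.0 CPM. This was 0.23 ± 0.04 (FDR = 3.4e-06), the largest rise among the broad members, and the groups did not overlap.

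PTBP3 also rose, from 87.0 ± 1.22 to 96.7 ± 3.95 CPM (0.15 ± 0.03, FDR = 3.6e-04), so the paralogs PTBP1 and PTBP3 differed in direction. KHDRBS1, also called SAM68, fell from 278.3 ± 1.62 to 261.0 ± 7.81 CPM (-0.093 ± 0.028, FDR = 0.0057). This call was lost by DESeq2 (FDR = 0.0102), with library totals alone (-0.063) and when any dish other than PACT KO replicate 2 was left out (-0.071 to -0.098). The members without a call were MBNL2 (-0.21 ± 0.09, FDR = 0.052), TIAL1 (-0.052 ± 0.033), CELF1 (-0.038 ± 0.029) and MBNL1 (0.011 ± 0.038). MBNL1 and CELF1 often act in opposite ways on the same exons. TIA1 counts were 0.668, 0.690 and 0.652 times those of its paralog TIAL1 in parental libraries and 0.837, 0.797 and 0.800 times in PACT KO libraries.

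The tissue-restricted members differed widely in level. NOVA1, a neuronal KH-domain protein first known as an antigen in paraneoplastic disease, had 77, 98 and 101 counts in parental libraries and 699, 675 and 512 counts in PACT KO libraries. As CPM these were 3.39, 4.53 and 4.08 against 28.3, 27.8 and 25.3, a fold change of 6.79 (FDR = 9.2e-24, edgeR). Every PACT KO dish lay far above every parental dish, and no other annotated protein-coding or long noncoding RNA gene overlaps NOVA1. Per kilobase of exon NOVA1 ranked 46 of 50 in parental cells with 0.398 CPM per kb. In PACT KO cells it had 2.70 CPM per kb, above PTBP2 (2.197), MBNL2 (2.12), QKI (1.90), KHDRBS3 (1.78) and MBNL3 (1.75). The order among these low members is close, and of the members tested NOVA1 alone differed by more than 1.5-fold between the groups.

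NOVA2, the paralog of NOVA1 in the cortex, had 1, 1 and 0 counts against 3, 1 and 0, which is at the limit of detection in both groups. CELF2, found in brain, muscle and lymphocytes, had 1, 3 and 1 counts against 2, 4 and 0. SRRM4, the neuronal microexon activator also known from neuroendocrine prostate cancer, had 1, 0 and 3 counts against 1, 3 and 1. These 3 genes were not tested and no fold change is given for them. Of 8 neuroendocrine markers, 2 had enough reads, and 0 passed by edgeR, also at an unadjusted p under 0.05 and by DESeq2. SYP gave 0.19 ± 0.21 and ENO2 -0.073 ± 0.070 as log2 fold changes, INSM1 and NEUROD1 had 0 counts in every library, and CHGA had at most 2. Their summed level was 22.0 to 24.1 CPM in parental and 22.1 to 22.8 CPM in PACT KO libraries, with overlap.

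KHDRBS3, a KH-domain relative of SAM68 enriched in brain and testis, had 10.4, 10.2 and 11.7 CPM in parental dishes and 16.2, 16.3 and 13.6 CPM in PACT KO dishes. It rose by 0.52 ± 0.09 on the log2 scale (FDR = 9.9e-06), a fold change of 1.43, and passed 1.5-fold only without PACT KO replicate 3, its lowest KO dish, at 0.60. PTBP2, the neuronal paralog of PTBP1, had 24.2, 26.1 and 26.2 CPM against 29.7, 25.8 and 29.8 CPM. The groups overlapped through PACT KO replicate 2, and the log2 fold change of 0.15 ± 0.06 did not pass (FDR = 0.044), but without that dish it was 0.22 and passed (FDR = 0.0064). MBNL3, the muscleblind member of placenta and muscle precursors, had 18.4, 19.7 and 19.5 CPM against 19.8, 22.2 and 22.2 CPM. The dishes did not overlap, though narrowly, and the change of 0.16 ± 0.07 did not pass (FDR = 0.071).

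The epithelial and widely detected members of the restricted class were lower or not called. ESRP1, which with ESRP2 sets the epithelial splicing programme, had 104.6, 106.5 and 104.8 CPM against 98.1, 100.8 and 97.2 CPM. Every PACT KO dish was lower, but the log2 fold change of -0.092 ± 0.032 did not pass (FDR = 0.018). ESRP2 had 120.6, 115.7 and 114.3 CPM against 101.5, 96.0 and 108.1 CPM and fell by 0.20 ± 0.04 (FDR = 1.3e-05), in a locus that it shares in part with NFATC3. RBFOX2, a UGCAUG-binding regulator of muscle, brain and epithelium, had 104.2, 103.2 and 103.8 CPM against 97.4, 96.9 and 94.6 CPM. It fell by 0.11 ± 0.03 (FDR = 0.0060), a call that was lost by DESeq2 (FDR = 0.027), with library totals alone (FDR = 0.043) and without any dish except PACT KO replicate 2 (-0.089 to -0.11). Restricted members of at least 30 CPM, namely these 3, all had fold changes below 0, and the 4 below 30 CPM all had fold changes above 0. Over all genes tested, 7223 lay below 0 and 7239 above. ESRP1, PTBP2 and MBNL3 were not called, so 3 of these 7 signs are not resolved and the split is a description only.

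**Figure D3:**
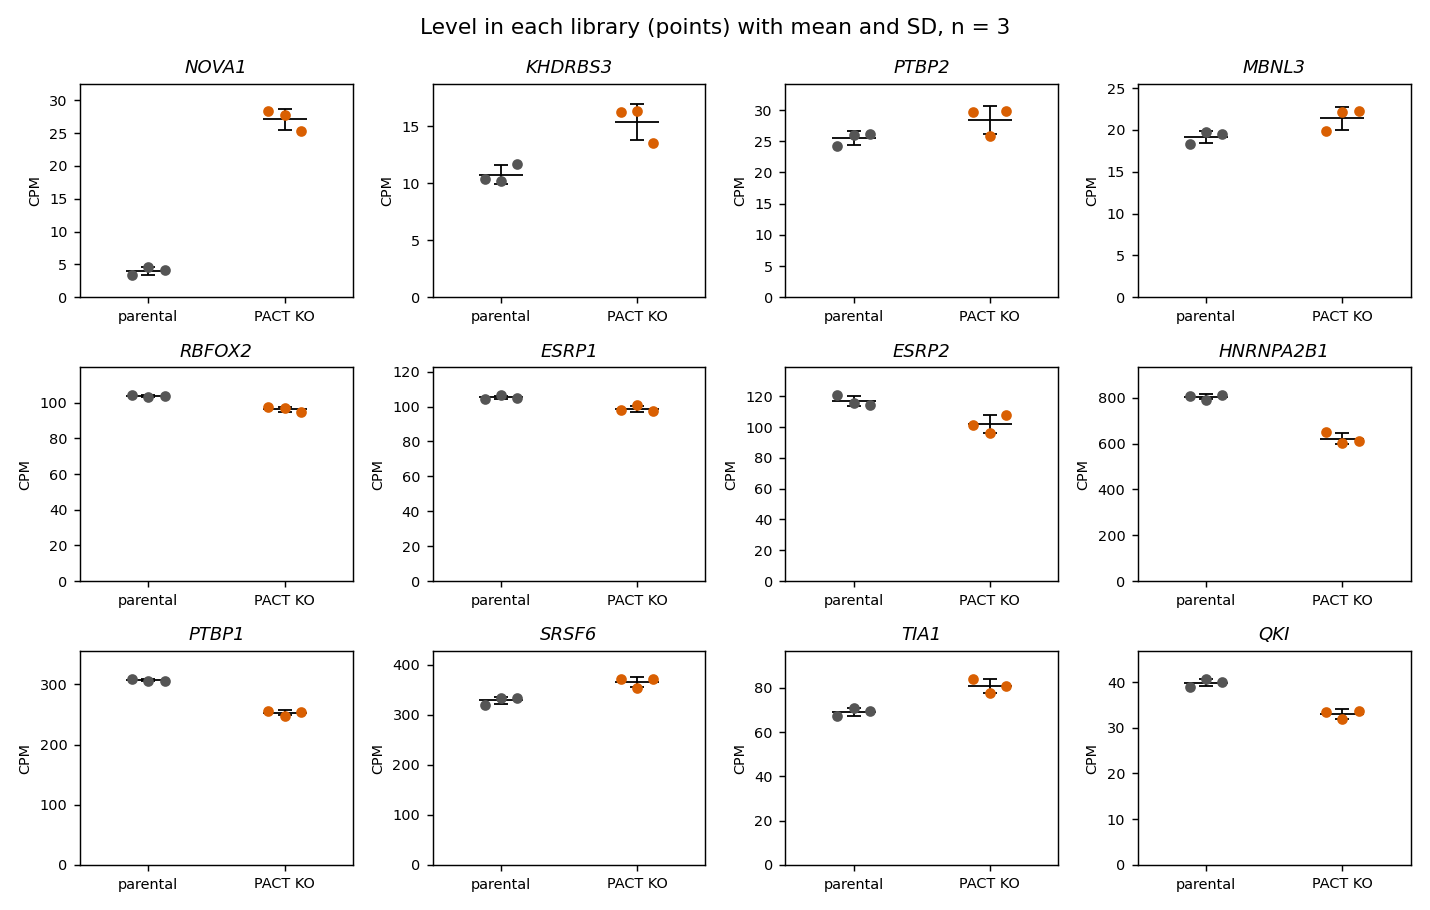
CPM (vertical axes, from 0, each panel with its own scale) of 12 members in the 3 parental and 3 PACT KO dishes, with mean and SD. NOVA1 rises from about 4 to about 27 CPM, PTBP2 overlaps between the groups through a single KO dish, and HNRNPA2B1, PTBP1 and QKI lie lower in every KO dish.

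Ratios between relatives within a library remove the scaling of libraries altogether. The 8 pairs were chosen after the values were seen and are descriptions without a test. PTBP2 had 0.0784, 0.0854 and 0.0857 reads per read of PTBP1 in parental libraries and 0.116, 0.104 and 0.117 in PACT KO libraries, 1.35 times the parental mean, while PTBP1 itself had fallen. KHDRBS3 relative to KHDRBS1 was 0.0386 ± 0.0028 and 0.0588 ± 0.0057, 1.52 times the parental mean. SRSF11 relative to SRSF3 stood at 1.24 times and MBNL3 relative to MBNL1 at 1.11 times the parental mean, with separate groups in both cases. ESRP1 relative to ESRP2 was 0.901 ± 0.029 and 0.972 ± 0.075, with overlap, so the balance of the epithelial pair was not resolved.

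**Figure D4:**
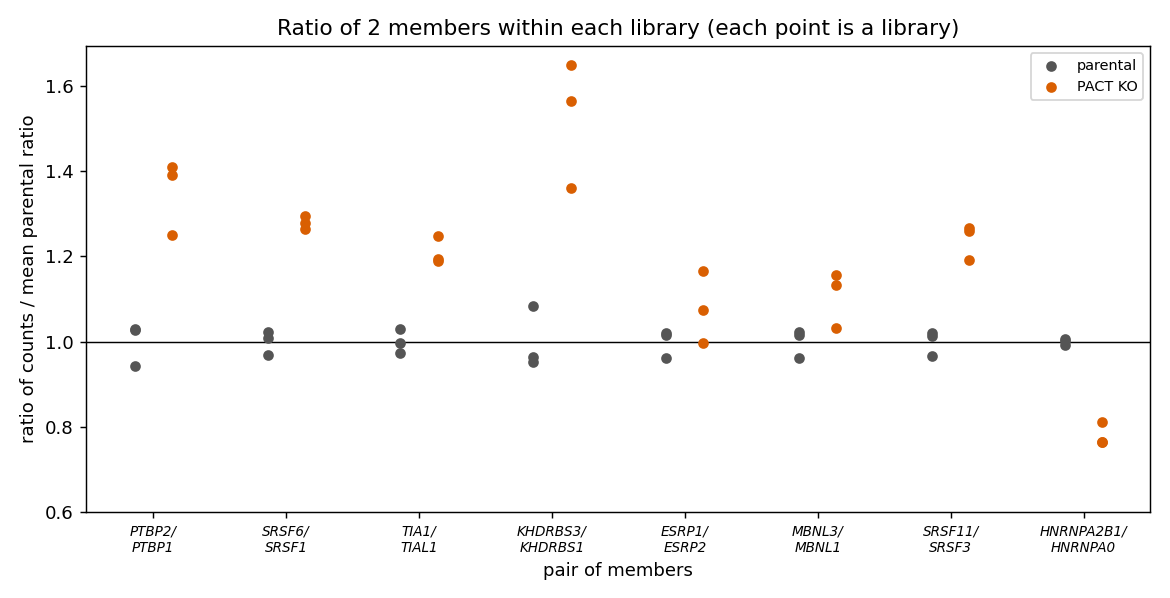
Ratio of the counts of 2 members in each library, divided by the mean parental ratio (vertical axis, from 0.6), for 8 pairs of members, with parental libraries in grey and PACT KO libraries in orange. The groups are apart for 7 pairs, KHDRBS3/KHDRBS1 furthest with a mean of 1.52, and overlap for ESRP1/ESRP2.

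Lists of the machinery that these regulators act on were compiled from general knowledge. Most of their genes averaged at least 30 CPM, so their counts are read against the 29.2% lower and 17.9% higher among genes of that level. The further tissue-restricted list, with 0 tested genes of that level, is the exception and is read against all genes tested. Of 14 Sm and LSm proteins, the rings at the core of the snRNPs, 10 fell and LSM8 rose (a call lost by DESeq2 and when any library but PACT KO replicate 3 was left out), with a median of -0.23 and a summed level 0.835 times the parental level. The clearest were SNRPB, from 219.5 to 161.6 CPM (-0.44 ± 0.03), LSM4 (-0.36 ± 0.03) and SNRPD1 (-0.27 ± 0.04). Of 16 proteins of the U4/U6.U5 tri-snRNP, 14 fell and 0 rose, with a median of -0.16. They were led by the helicase DDX23 (-0.30 ± 0.03), SNRNP200, which unwinds U4 from U6 (-0.25 ± 0.03), and PRPF6 (-0.24 ± 0.03).

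Of 15 proteins of the U2 snRNP and U2AF, 9 fell and 0 rose, with a median of -0.14. U2AF2, which binds the polypyrimidine tract, went from 373.4 to 305.0 CPM (-0.29 ± 0.03), SF3B3 from 307.9 to 264.5 CPM and SNRPA1 from 52.8 to 43.2 CPM. The count of U2AF1 is not informative, since it was 10, 10 and 11 against 4, 7 and 12 reads and its annotated copy LOC102724594 had 0. Of 6 U1 snRNP proteins, 3 fell (SNRPA, SNRNP70 and SNRPC, by 0.14 to 0.29) and 0 rose. At an unadjusted p under 0.05, the tri-snRNP and U2 lists still had 0 higher and the U1 list had 1, and DESeq2 gave 0 higher for all 3. The Prp19 complex and catalytic factors moved less, with 5 of 22 lower, 0 higher (also 0 at an unadjusted p under 0.05 and by DESeq2) and a median of -0.040, a count no higher than that background. Its lowest p-values belonged to DHX15 (-0.25 ± 0.03), PRPF19 (-0.20 ± 0.03) and DHX38 (-0.26 ± 0.04).

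Of the 12 kinases and phosphatases that act on SR proteins, 2 fell, PPM1G (-0.31 ± 0.03) and SRPK1 (-0.18 ± 0.03), and SRPK2 rose (0.25 ± 0.03), which is not above the background. SRPK1 and SRPK2 both phosphorylate SR proteins in the cytoplasm, and they differed in direction. Of 29 further broad regulators, 17 fell and 2 rose (RBM5 and CIRBP), with a median of -0.13. Among those that fell were RAVER1, a partner of PTBP1, which went from 88.6 to 61.2 CPM (-0.53 ± 0.04), and TAF15 (-0.28 ± 0.03). Of 13 exon junction and nonsense-mediated decay factors, which degrade transcripts with early stops, 4 fell and 1, SMG6 (0.18 ± 0.04), rose, but without parental replicate 1 only 1 fell and with library totals alone 2, so the count is near the background. Of 16 further tissue-restricted regulators only 6 had enough reads, 3 with fold changes below 0 and 3 above. RBM24, a regulator of muscle, was a DEG that fell from 9.54 to 5.84 CPM (-0.71 ± 0.10), and the other 5 were not called. Over all genes tested, 2.65% were DEGs that were lower. The neuronal regulators RBFOX1, ELAVL4 and KHDRBS2 had 0 counts in every library.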

How the data were processed

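PolyA RNA from 3 dishes of LNCaP parental and 3 of PACT KO cells was sequenced on an Illumina NovaSeq, and the authors deposited whole-number counts of reads per NCBI Gene number without normalization. The submitters' processing notes name hg38, bcl2fastq 2.20.0.422, STAR 2.5.3a, StringTie 1.3.3 and featureCounts 1.5.3. The annotation release, the strand setting and the treatment of reads with several matches are not given in the sources used here. Of the 50 members, 21 overlap another annotated protein-coding or long noncoding RNA gene, the only kinds searched. Reads in a row that names no gene (0.0688% to 0.0708% per library) were left out. All 6 columns were matched to their samples by header and labels.

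Gene numbers were given symbols from RefSeq GRCh38.p14 (27540 of 29806), and exon lengths came from GENCODE 29. Genes were kept by filterByExpr, scaled by TMM and compared with glmQLFit and glmQLFTest in edgeR 4.0.16 (R 4.3.3), 2-sided, with Benjamini-Hochberg adjustment over all 14462 genes tested. A gene was called at an FDR under 0.01, and a DEG also needed an absolute fold change of 1.5. The SE of a log2 fold change was taken from its size and the F statistic (size over the root of F). CPM used the TMM factors. Genes that filterByExpr removed were not tested and are given no fold change. The limit of detection, 3 counts in a library, covers counting error only. The fit was tested on simulated counts with 200 genes changed by at least 1.5-fold, which does not cover the smaller changes of most members. Alternatives were 3 other scalings, 2 other filters, DESeq2 1.42.0, limma-voom (limma 3.58.1), the likelihood ratio test, glmTreat, other thresholds, the replicate number as a block, and each library left out.

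The members, the lists and the rule for naming genes were chosen with earlier results of these data known. All members are named, with values by dish for each tissue-restricted member, each DEG and the 3 of smallest p in each other family, and from each further list at most the 3 of smallest p and any DEG. Other genes of those lists, and values by dish of TRA2A, HNRNPA0 and HNRNPH2, were chosen after their values were seen. Results for a few listed genes are not reported here. Figures used matplotlib 3.10.9.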

Additional observations from a re-analysis of the deposited data

How the results depend on the processing

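NOVA1 kept its call and stayed above 1.5-fold under all 15 alternative fits, and also by glmTreat and at 2-fold. The median of the broad members was -0.13 and became -0.10 with upper quartile scaling and -0.099 with library totals alone. The median over all genes tested moved in the same direction, from 0.000438 to 0.0245 with upper quartile scaling and 0.0297 with library totals alone. With a library left out, the median of the broad members ranged from -0.12 to -0.15, the lowest without PACT KO replicate 1. With SR proteins and hnRNPs against the other 19 members, the median of the latter was -0.045, in place of 0.15 for the tissue-restricted class. Member DEGs that were higher numbered 1 to 2 with a library left out, the second being KHDRBS3 without PACT KO replicate 3. Over all genes, 383 DEGs lower and 444 higher became 175 and 147 at 2-fold, and 151 and 114 by glmTreat against 1.5-fold. The share of lower genes among those called turned with scaling, from 2726 lower and 2214 higher to 2350 and 2652 (upper quartile) or 2286 and 2731 (library totals). Signs turned for members without a call, namely SRSF5 (-0.013 without parental replicate 1 and -0.0051 without PACT KO replicate 3, within -0.013 to 0.044 with a library left out), TRA2A (0.011 with upper quartile, 0.017 with library totals, 0.026 without PACT KO replicate 2, within -0.028 to 0.026), HNRNPA0 (0.0082 and 0.014 with those scalings) and MBNL1 (-0.035 without parental replicate 1, within -0.035 to 0.056). The cause of these shifts was not tested. Dishes of the same replicate number did not deviate together (correlations of -0.088, -0.0019 and -0.082), so the number was not taken as a pairing; with the replicate block 24 members were lower and 5 higher, RBFOX2 lost its call (FDR = 0.0103), and no other member's call changed. At a total of 19930060 to 24940838 reads, members with under 10 reads per library, such as NOVA2, CELF2 and SRRM4, cannot be compared.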

Other observations

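The tested genes nearest to NOVA1 on chromosome 14 lay far from it. On the side of lower coordinates STXBP6, 1393 kb away, was higher in PACT KO cells (0.46 ± 0.09, FDR = 1.0e-04, edgeR), from 7.95 to 10.9 CPM. The next were LOC101927045 at 1941 kb (0.18 ± 0.09, FDR = 0.10) and SDR39U1 at 2000 kb (0.055 ± 0.036, FDR = 0.22), and neither passed. On the other side PRKD1 at 2978 kb (0.048 ± 0.026, FDR = 0.14) and G2E3 at 3961 kb (-0.050 ± 0.044, FDR = 0.38) did not pass, and SCFD1 at 4024 kb was higher (0.15 ± 0.03, FDR = 1.5e-04). None of these 6 genes was a DEG by edgeR, beside 2.65% of all genes tested that were DEGs lower and 3.07% higher. At an FDR under 0.01, 15.3% of all genes were higher, so 6 genes show nothing about the locus.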
